A study of Homo sapiens with 6 samples.

Results

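Integrins, laminins and fibronectin are the receptors and ligands through which epithelial cells hold on to the matrix below them. Probe sets were taken where the platform annotation gave exactly 1 gene symbol and that symbol was an integrin subunit (ITGA or ITGB), a laminin chain (LAMA, LAMB or LAMC) or FN1. This gave 102 probe sets for 36 of the 19775 genes measured: FN1, 10 laminin chains, 18 integrin alpha subunits and 7 integrin beta subunits. The 4 probe sets of ITGB6 and 1 further probe set of LAMA5 carried more than 1 symbol and were not used here. LAMA3 was not analysed here.

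The study asked which transcripts depend on SDC1 in Caco-2, an established line from a human colorectal adenocarcinoma whose cells polarise like enterocytes when confluent. SDC1 encodes syndecan-1, a transmembrane proteoglycan that binds matrix proteins through heparan sulfate. Total RNA came from cells transfected with a negative control siRNA (3 arrays, called control here) or with an siRNA against SDC1 (3 arrays). All 6 arrays are of the same line, and the sources used here do not give the time after transfection. The replicates are called independent, but the labels name no separate cultures, so the p-values rest on array-to-array spread that may be technical.

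As background, an integrin is a pair of 1 alpha and 1 beta subunit that spans the membrane and links matrix to actin or keratin filaments. A laminin is a trimer of 1 alpha, 1 beta and 1 gamma chain and is the main adhesive protein of basement membranes. Fibronectin is a dimeric glycoprotein that cells assemble into fibrils, chiefly through integrin α5β1, which reads its RGD motif. Syndecans bind the heparin-binding domains of both fibronectin and laminins and act beside integrins at adhesion sites. Intestinal epithelium meets laminins through integrins α3β1, α6β1 and α6β4, and collagens through α2β1.

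Each value is a log2 signal relative to the median of its probe set across the arrays, so arrays can be compared but levels of different genes cannot. By construction, where the groups of a probe set are separate, the highest array of the lower group and the lowest array of the other are mirror images around 0. A rough brightness class (log2 of 8 to 16, 4 to 8 or below 4 before centring) was read from the storage steps of the numbers. SDC1 itself was lower with SDC1 siRNA by 0.84 on the log2 scale (difference -0.84 ± 0.08, standard error, n = 3 per group, limma adjusted p = 0.0238). That call was lost in every fit without 1 array (adjusted p from 0.0615 to 0.326). The median absolute difference between 2 arrays over all genes ran from 0.09 to 0.15. Of 8 epithelial markers, EPCAM, CDH1, KRT8, KRT18 and KRT19 were in the brightest class, VIL1 and CDX2 in the middle class and CDH17 in the dimmest. Between the groups, 0 of the 8 reached an unadjusted p of 0.05, where 10.6% of all genes did. The fibroblast marker COL1A1, the endothelial marker VWF and the leukocyte marker LCP1 were in the brightest class too. The class therefore does not tell these cell types apart.

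Fibronectin, the collagen receptor subunit ITGA2, the laminin chain LAMB3 and the laminin receptor subunits ITGA6 and ITGA3 were the 5 genes with the lowest p, and all lay higher with SDC1 siRNA. Of the 36 genes, 0 passed an adjusted p of 0.05 in limma over all 19775 genes, where 5 passed (0.0253%). At an unadjusted p under 0.05 there were 7 of the 36 (19.4%), against 10.6% of all genes. All 7 were higher with SDC1 siRNA, where 5.43% of all genes were higher and 5.19% lower at that p. The groups did not overlap for 8 of the 36 genes (22.2%), against 16.7% of all genes. These 8 were higher with SDC1 siRNA, as were 8.26% of all genes, and none was lower, where 8.47% of all genes were. The differences were above 0 for 27 genes and below 0 for 9, with a median of 0.05 against 0.01 over all genes.

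**Figure D1:**
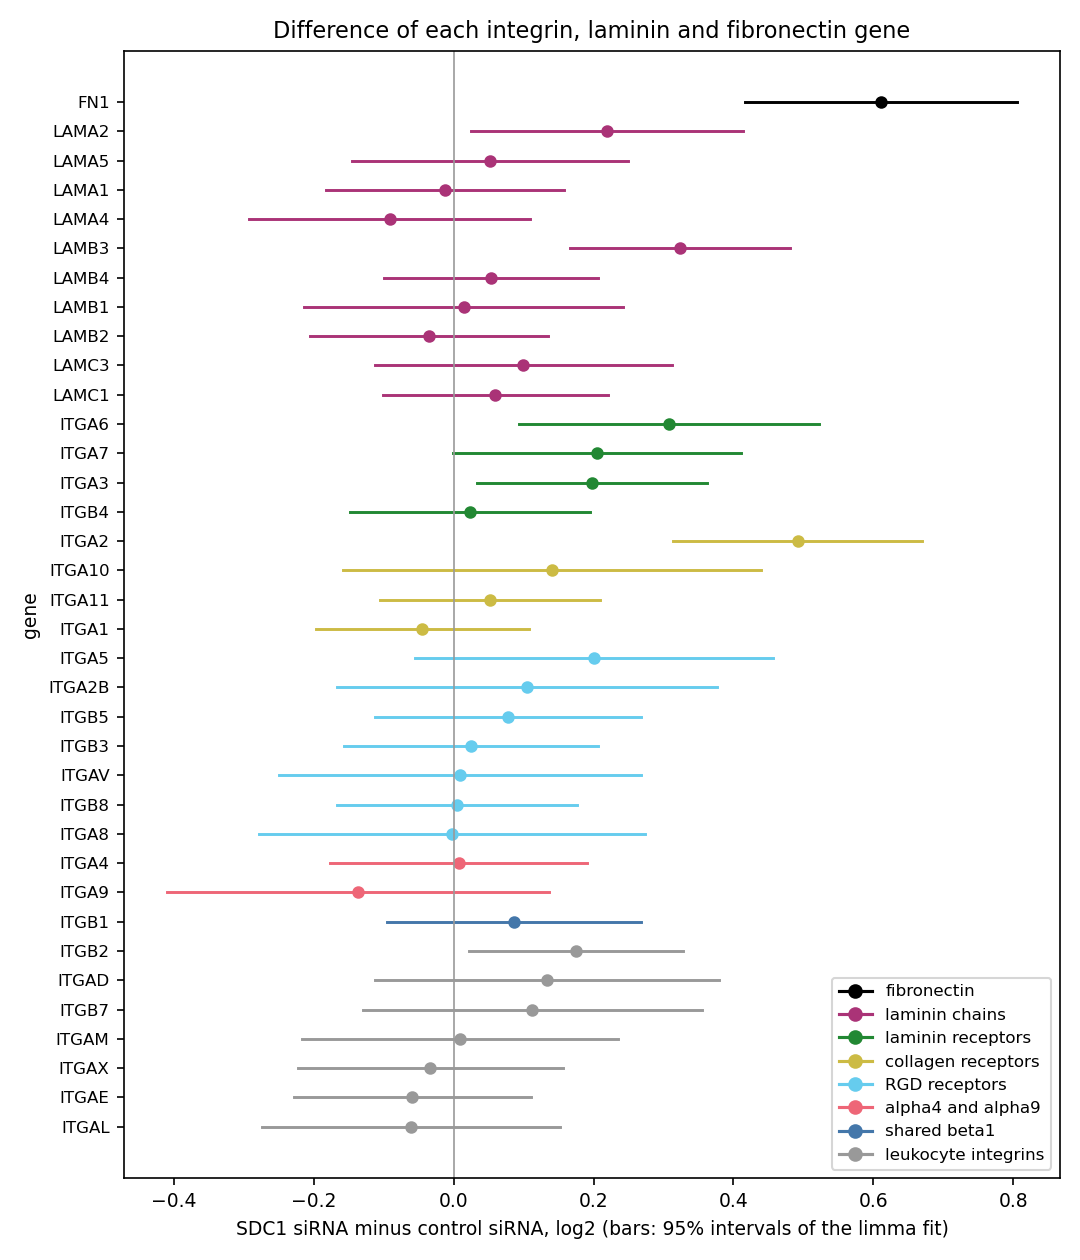
Log2 difference of each of the 36 genes (SDC1 siRNA minus control, 3 arrays each), grouped by family, with 95% intervals of the limma fit as bars. FN1 at 0.61 and ITGA2 at 0.49 lie farthest to the right, and ITGA9 at -0.14 lies farthest to the left with an interval that spans 0.

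Fibronectin, encoded by FN1, had the largest difference of the 36 genes. Its relative log2 signal, as the mean of its 3 probe sets in the brightest class, was -0.39, -0.21 and -0.32 in control replicates 1, 2 and 3. It was 0.21, 0.27 and 0.44 in SDC1 siRNA replicates 1, 2 and 3. Every SDC1 siRNA array lay above every control array. The means were -0.30 ± 0.09 (SD, n = 3) and 0.31 ± 0.12 (SD, n = 3). The difference of 0.61 ± 0.09 is a 1.53-fold higher signal, with a 95% interval from 0.42 to 0.81 (unadjusted p = 7.37e-05, limma adjusted p = 0.096). For FN1, SDC1, ITGA2, LAMB3 and ITGA6 alike, the exact permutation test (two-sided, 3 against 3) gave p = 0.1, the smallest value this design allows. Any gene with separate groups must give this value, and groups were separate for 16.7% of all genes.

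The array holds 7 FN1 probe sets, and not all of them showed this difference. Identifiers ending in _x_at or _s_at mark probes that can match more than 1 transcript. Probe set 216442_x_at, in the brightest class, read -0.34, -0.25 and -0.43 in the controls and 0.25, 0.30 and 0.42 with SDC1 siRNA, a difference of 0.66 ± 0.09. Probe set 210495_x_at, of the same class, read -0.43, -0.20 and -0.23 in the controls and 0.20, 0.30 and 0.43 with SDC1 siRNA, a difference of 0.60 ± 0.10. The last of the brightest class, 211719_x_at, read -0.40, -0.18 and -0.29 in the controls and 0.18, 0.22 and 0.45 with SDC1 siRNA, a difference of 0.58 ± 0.10. In all 3 the groups were separate, with SDC1 siRNA replicate 3 the highest array.

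The 4 other FN1 probe sets differed among themselves. Probe set 212464_s_at, in the middle class, read -0.44, -0.16 and -0.35 in the controls and 0.16, 0.29 and 0.41 with SDC1 siRNA, with separate groups and a difference of 0.60 ± 0.11. Probe set 214701_s_at, also in the middle class, read -0.46, -0.09 and 0.04 in the controls and 0.05, -0.04 and 0.12 with SDC1 siRNA. Its groups overlapped, and its difference was 0.21 ± 0.13. The dim probe set 1558199_at read 0.09, -0.11 and 0.18 in the controls and -0.09, -0.27 and 0.54 with SDC1 siRNA, with a wide overlap and a difference of 0.00 ± 0.19. The dim probe set 214702_at read -0.12, 0.06 and 0.03 in the controls and -0.29, 0.06 and -0.03 with SDC1 siRNA, also overlapping, with a difference of -0.08 ± 0.11. Tested singly among 54613 probe sets in limma, 216442_x_at had an adjusted p = 0.201, the lowest of all 102 probe sets, and the 3 other separate FN1 probe sets an adjusted p = 0.299. The 2 dim probe sets are the only ones without a shared sequence type, so the FN1 gene value without those types was -0.039, and it was 0.37 with the mean of all 7.

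**Figure D2:**
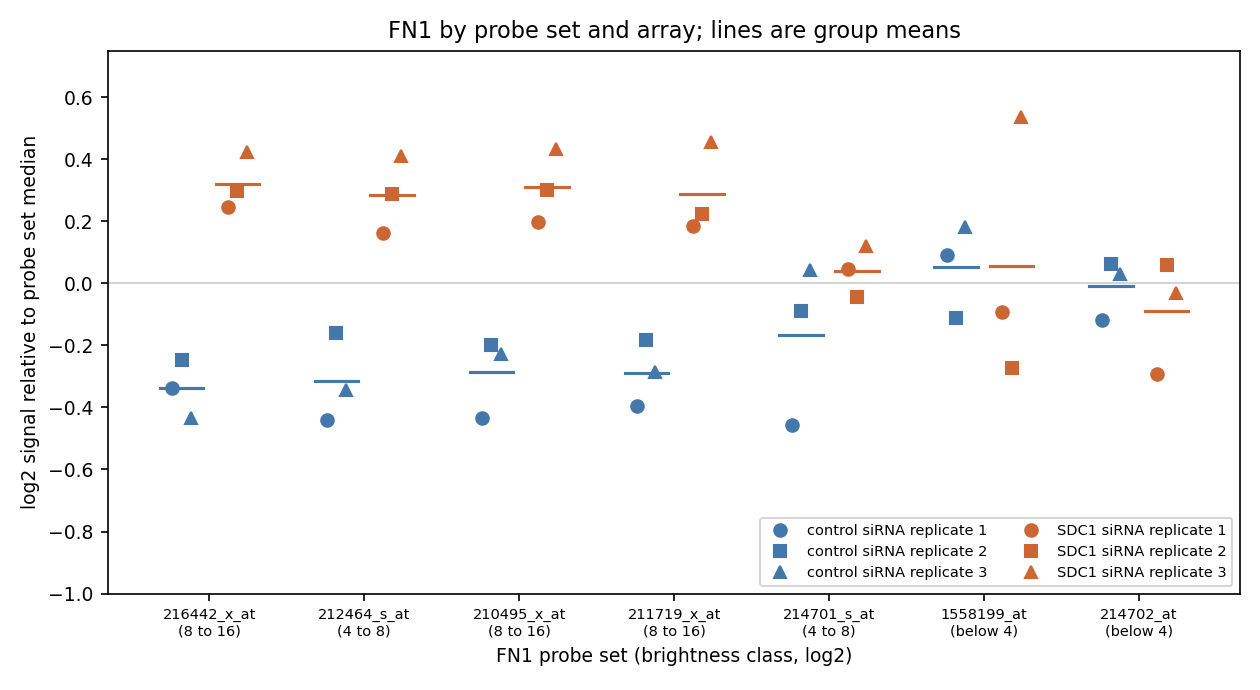
Relative log2 signal of each FN1 probe set (x axis, with its brightness class) in each of the 6 arrays; points are arrays and lines are group means. The 4 probe sets on the left have separate groups with differences from 0.58 to 0.66, while the 3 on the right overlap, with differences of 0.21, 0.00 and -0.08.

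FN1 is also made in large amounts by fibroblasts, so fibroblast markers are given beside it. Of 6 markers, 3 reached an unadjusted p under 0.05, against 10.6% of all genes. All 3 were lower with SDC1 siRNA: LUM at -0.62 ± 0.17, COL3A1 at -0.29 ± 0.10 and PDGFRB at -0.24 ± 0.10. The groups of PDGFRB overlapped. DCN was at 0.10 with separate groups, higher with SDC1 siRNA. COL1A1 at 0.07 and PDGFRA at 0.21 had overlapping groups. The mean relative signal of the 6 was -0.01, 0.20 and 0.03 in control replicates 1, 2 and 3. With SDC1 siRNA it ran from -0.07 to -0.03. In control replicate 2, LUM alone read 0.84. The part of these markers in the FN1 result was not tested. The labels name only Caco-2 cells, an epithelial line, and no other cell type. Bulk RNA does not separate a change in the mix of cells from a change per cell.

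ITGA2 encodes integrin α2, which with β1 forms the main collagen receptor of epithelia and can also bind laminins. Its relative log2 signal was -0.42, -0.30 and -0.21 in control replicates 1, 2 and 3 and 0.12, 0.25 and 0.18 with SDC1 siRNA. The groups were well apart, with 0.33 between the highest control and the lowest SDC1 siRNA array. The difference was 0.49 ± 0.08 (1.41-fold, 95% interval from 0.31 to 0.67, unadjusted p = 0.000188, limma adjusted p = 0.103). Both of its probe sets were in the middle class and of no shared type. Probe set 227314_at had a difference of 0.69 ± 0.11 with separate groups, and 205032_at had 0.30 ± 0.13 with overlapping groups, where control replicate 3 reached 0.02 and SDC1 siRNA replicate 3 was at -0.02.

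LAMB3 encodes the laminin β3 chain, part of the laminin that hemidesmosomes hold on to. Its only probe set, of the middle class, read -0.10, -0.19 and -0.16 in the controls and 0.10, 0.22 and 0.20 with SDC1 siRNA. The groups were separate and tight, with SDs of 0.04 and 0.06 (n = 3 each). The difference was 0.32 ± 0.07 (1.25-fold, 95% interval from 0.17 to 0.48, unadjusted p = 0.00134, limma adjusted p = 0.17).

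The promoters of FN1, ITGA2 and LAMB3, the 3 genes with the largest differences, are shown because their signals were higher together. The sequences are the 250 bases before each start site from RefSeq on GRCh38.p14, 5′ to 3′ on the gene's strand. FN1 is at chr2:215436069-215436318 (minus strand), ITGA2 at chr5:52989102-52989351 (plus strand) and LAMB3 at chr1:209652426-209652675 and chr1:209651375-209651624 (minus strand). RefSeq lists 3 LAMB3 starts, of which start 1 and start 3 are printed, since the window of start 2 overlaps that of start 1. Capitals mark matches on either strand to TGACGTCA (the cAMP response element), TGANTCA (the AP-1 site), GGGCGG (the GC box) and CAGGTG (an E-box).
FN1: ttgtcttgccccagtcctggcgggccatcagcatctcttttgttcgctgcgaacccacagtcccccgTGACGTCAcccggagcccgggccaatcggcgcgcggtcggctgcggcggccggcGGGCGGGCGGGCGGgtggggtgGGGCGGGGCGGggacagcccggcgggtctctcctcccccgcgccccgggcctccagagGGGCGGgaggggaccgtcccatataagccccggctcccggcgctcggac
ITGA2: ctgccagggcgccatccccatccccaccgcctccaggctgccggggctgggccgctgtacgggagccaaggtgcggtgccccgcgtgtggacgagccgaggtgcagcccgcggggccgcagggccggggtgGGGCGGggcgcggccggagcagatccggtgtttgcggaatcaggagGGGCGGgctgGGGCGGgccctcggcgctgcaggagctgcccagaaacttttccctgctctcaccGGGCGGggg
LAMB3 start 1: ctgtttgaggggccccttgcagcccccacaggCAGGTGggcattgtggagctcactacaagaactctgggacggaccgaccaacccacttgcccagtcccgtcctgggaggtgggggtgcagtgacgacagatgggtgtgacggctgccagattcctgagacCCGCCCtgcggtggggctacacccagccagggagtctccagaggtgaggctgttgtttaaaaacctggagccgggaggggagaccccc
LAMB3 start 3: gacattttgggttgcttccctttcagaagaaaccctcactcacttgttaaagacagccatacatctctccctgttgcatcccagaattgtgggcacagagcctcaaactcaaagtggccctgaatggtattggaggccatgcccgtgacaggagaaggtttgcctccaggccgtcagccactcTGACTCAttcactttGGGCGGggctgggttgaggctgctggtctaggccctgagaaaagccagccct

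The 4 printed windows share the GC box and little else of the motifs searched. FN1 holds 6 GC boxes, some of which overlap each other, and ITGA2 holds 4. The GC box was in 42.6% of 35116 windows of the same length over all genes, and in 17 of the 32 windows of the 25 genes of this family that RefSeq's table holds. The cAMP response element lies 183 to 176 bases before the FN1 start; it was in 1.65% of all windows, and in the family in FN1 alone. The AP-1 site lies 67 to 61 bases before LAMB3 start 3; it was in 6.57% of all windows, and in the family in LAMB3 alone. The E-box before LAMB3 start 1 was in 17.5% of all windows and in 6 of the 32 windows of the family. A match describes letters and is not a measured binding site.

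Among the laminin receptors, ITGA6 encodes integrin α6, the alpha subunit of hemidesmosomes. Its brightest probe set, 201656_at, read -0.29, -0.17 and -0.03 in the controls and 0.27, 0.03 and 0.12 with SDC1 siRNA. The groups were separate by a narrow margin, between control replicate 3 and SDC1 siRNA replicate 2. The difference was 0.31 ± 0.09 (1.24-fold, unadjusted p = 0.0104, limma adjusted p = 0.317). The second probe set, 215177_s_at of the middle class, had a difference of 0.15 ± 0.08, also with separate groups.

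ITGA3 encodes integrin α3, the partner of β1 in the other main laminin receptor of epithelia. Its single probe set read -0.03, -0.15 and -0.18 in the controls and 0.03, 0.13 and 0.06 with SDC1 siRNA. The groups were separate by 0.067, a margin as narrow as that of ITGA6 (0.066). The difference was 0.20 ± 0.07 (unadjusted p = 0.0241, limma adjusted p = 0.39). ITGA7, whose product α7β1 is best known as the laminin receptor of muscle, was at 0.20 ± 0.09 with overlapping groups (limma adjusted p = 0.473).

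The beta subunits that pair with these alpha subunits showed smaller differences. ITGB4 encodes β4, which joins only α6 and anchors keratin filaments, and it was at 0.02 ± 0.07, with -0.08, 0.07 and 0.10 in the SDC1 siRNA arrays and 0.01, -0.05 and 0.06 in the controls. ITGB1 encodes β1, the shared partner of most matrix integrins, and it was at 0.09 ± 0.08 from 3 probe sets of the brightest class. Both had overlapping groups, with a limma adjusted p = 0.95 for ITGB4 and 0.755 for ITGB1. The 95% intervals reached from -0.15 to 0.19 for ITGB4 and from -0.10 to 0.27 for ITGB1. Whether the alpha subunits differed more than these beta subunits was not tested.

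**Figure D3:**
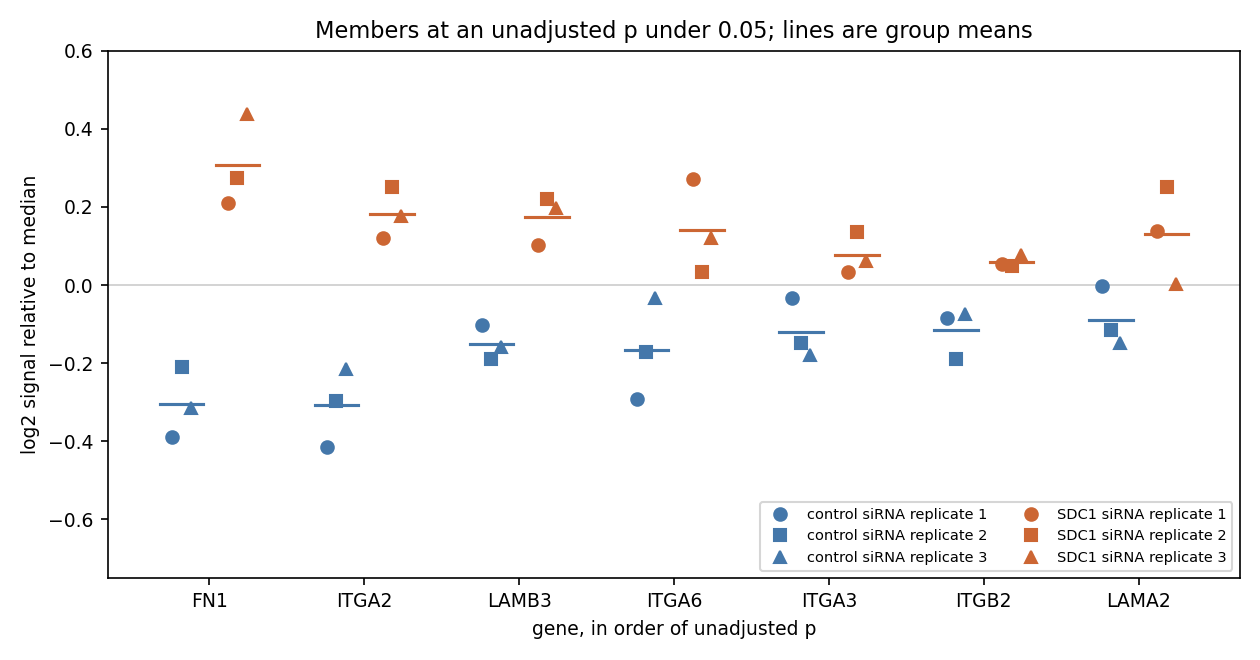
Relative log2 signal of the 7 genes at an unadjusted p under 0.05 in each array; points are arrays and lines are group means. The groups are separate in all 7, with wide gaps for FN1 and ITGA2 and narrow ones for ITGA6, ITGA3 and LAMA2.

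The other laminin chains stood closer to 0 than LAMB3. LAMA5, LAMB1 and LAMC1, which make up laminin-511 of the intestinal basement membrane, were at 0.05 ± 0.09, 0.01 ± 0.10 and 0.06 ± 0.07, each from probe sets of the brightest class. LAMA2, the alpha chain of laminin-211 of muscle and nerve, was at 0.22 ± 0.08 (unadjusted p = 0.0313, limma adjusted p = 0.417). Its signal was -0.0016, -0.11 and -0.15 in the controls and 0.14, 0.25 and 0.0016 with SDC1 siRNA, so control replicate 1 and SDC1 siRNA replicate 3 almost met. The LAMA2 value rested on 1 of 4 probe sets. The 3 others were at 0.09, 0.07 and 0.00, and the mean of all 4 gave 0.10.

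The remaining chains were LAMA1 at -0.01 ± 0.07, LAMA4 at -0.09 ± 0.09, LAMB2 at -0.04 ± 0.07, LAMB4 at 0.05 ± 0.07 and LAMC3 at 0.10 ± 0.09. LAMB4 was the only gene of the 8 with separate groups that did not reach an unadjusted p of 0.05, and its 3 probe sets were in the dimmest class. LAMA1, whose chain is typical of embryonic basement membranes, had a dim probe set, 222346_at, at -0.39 ± 0.11 with separate groups, beside the brighter 227048_at at -0.01 ± 0.09.

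The 7 integrin subunits classed here as RGD receptors had smaller estimated differences than FN1. Whether they differed less than FN1 was not tested. ITGA5, the alpha subunit of the main fibronectin receptor, read 0.06, -0.36 and -0.14 in the controls and -0.06, 0.09 and 0.13 with SDC1 siRNA. Its groups overlapped because control replicate 1 lay above SDC1 siRNA replicate 1. The difference was 0.20 ± 0.11 (unadjusted p = 0.11, limma adjusted p = 0.576). It was 0.30 without control replicate 1 (unadjusted p = 0.0196, limma adjusted p = 0.433) and 0.09 without control replicate 2 (unadjusted p = 0.36, limma adjusted p = 0.781). ITGAV, the alpha subunit shared by several RGD receptors, was at 0.01 ± 0.11, with 0.28 in control replicate 2 and values from -0.15 to 0.12 in the other arrays. Of the 7 RGD receptor subunits 0 reached an unadjusted p of 0.05, where 10.6% of all genes did. At that share, 0 of 7 does not set these subunits apart from other genes. Their differences ran from -0.0021 for ITGA8 to 0.20 for ITGA5, with ITGB5 at 0.08, ITGB3 at 0.02 and ITGB8 at 0.0045. ITGB5 and ITGB8 were not paired with fibronectin here, and ITGB1, the partner of α5, was counted apart from this class. ITGA2B, the platelet subunit, was at 0.10 ± 0.12.

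Set beside their ligands, fibronectin at 0.61 faced α5 at 0.20 and β1 at 0.09. LAMB3 at 0.32 faced α6 at 0.31, α3 at 0.20 and β4 at 0.02. The laminin-511 chains, at 0.01 to 0.06, share the same receptors. Of the collagen receptors, ITGA2 at 0.49 stood beside ITGA1 at -0.04 ± 0.07, ITGA10 at 0.14 ± 0.13 and ITGA11 at 0.05 ± 0.07. None of these subunits or chains passed over all genes.

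ITGA4 and ITGA9, whose products read alternatively spliced fibronectin or tenascin, were at 0.01 ± 0.08 and -0.14 ± 0.12. The 2 brighter ITGA9 probe sets pointed in opposite directions. Probe set 227297_at read 0.48, 0.06 and 0.33 in the controls and -0.10, -0.37 and -0.06 with SDC1 siRNA, with separate groups and a difference of -0.47 ± 0.13 (limma adjusted p = 0.445 among all probe sets). Probe set 206009_at was at 0.19 ± 0.13 with overlapping groups.

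The leukocyte integrins were measured as well, although Caco-2 is an epithelial line. ITGB2, the beta subunit shared by ITGAL, ITGAM, ITGAX and ITGAD, was at 0.18 ± 0.07 (unadjusted p = 0.0296, limma adjusted p = 0.412), with -0.08, -0.19 and -0.07 in the controls and 0.05, 0.05 and 0.08 with SDC1 siRNA. The groups were separate, but the value came mainly from 236988_x_at at 0.31 ± 0.10, while 1555349_a_at was at 0.04 ± 0.08, and without shared sequence types the gene was at 0.04. The gene values of the alpha subunits ITGAL, ITGAM, ITGAX, ITGAD and ITGAE were between -0.06 and 0.13. Dim probe sets left out of these values differed. ITGAM 205786_s_at was at 0.35 ± 0.09 and ITGAX 1563003_at at 0.25 ± 0.09, both with separate groups. ITGAL 1554240_a_at was at -0.09 ± 0.15 with overlapping groups. ITGB7, which pairs with ITGAE as the receptor for E-cadherin, was at 0.11 ± 0.11. The leukocyte marker PTPRC was in the dimmest class at 0.01 ± 0.08, and CD3E was at 0.22 ± 0.10 in the middle class, the only 1 of the 4 leukocyte markers measured at an unadjusted p under 0.05, with overlapping groups. LCP1 was in the brightest class at 0.11 ± 0.08 and CD14 in the middle class at -0.11 ± 0.12, both with overlapping groups. The mean of the 4 leukocyte markers measured ran from -0.09 to 0.09 in the controls and from 0.03 to 0.08 with SDC1 siRNA. The 4 endothelial markers, another cell type that expresses integrins and laminins, had a mean from -0.19 to -0.08 in the controls and from 0.04 to 0.09 with SDC1 siRNA. Of these 4, CDH5 at 0.37 ± 0.12 and VWF at 0.24 ± 0.09 were higher at an unadjusted p under 0.05, with separate groups, while PECAM1 was at 0.10 ± 0.09 and KDR at -0.01 ± 0.11, with overlapping groups. Over all genes, 10.6% reached that unadjusted p. The part of these markers in these results was not tested.

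Among single probe sets, 0 of the 102 passed in limma, as did 0 of all 54613 (0%). At an unadjusted p under 0.05 there were 14 higher and 2 lower, against 8.33% of all probe sets, 4.18% higher and 4.15% lower. Groups were separate in 16 that were higher and 4 that were lower, against 7.06% and 7.42% of all probe sets. FN1 gave 4 of the 16, so these probe sets are not independent of each other. The 16 probe sets of the brightest class held 5 with separate groups, all higher, from FN1 (3), ITGA6 and LAMA2. Groups were separate in 14.5% of all probe sets, and the share within that class was not counted. The 43 dim probe sets had a median difference of 0.01 and the 43 of the middle class 0.07.

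**Figure D4:**
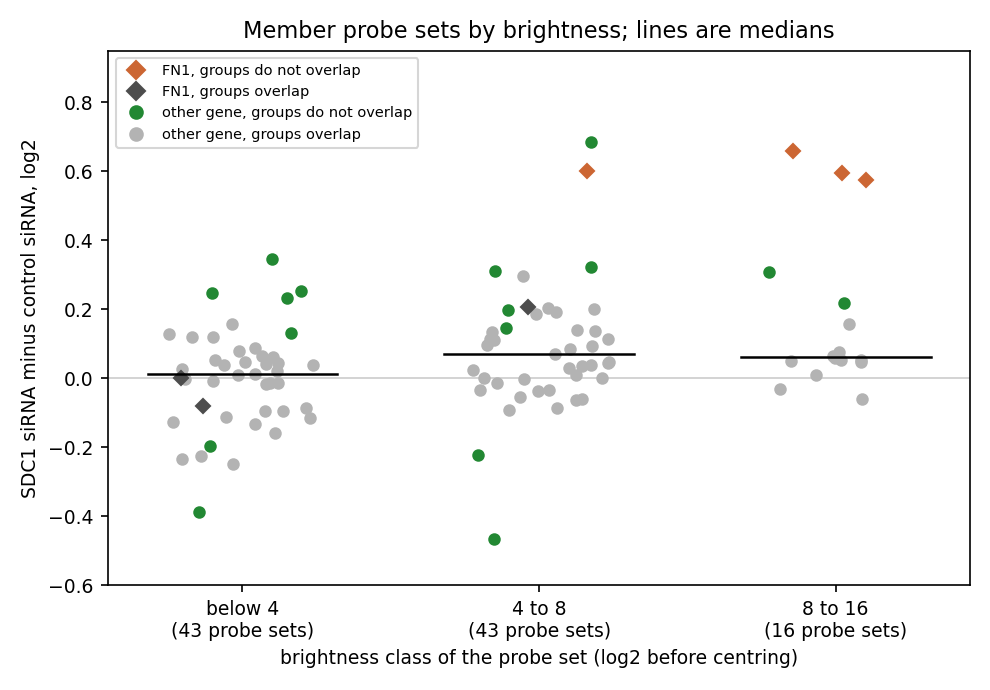
Log2 difference (SDC1 siRNA minus control) of each of the 102 probe sets by brightness class; diamonds are FN1, and black lines are class medians. The FN1 probe sets with separate groups lie at 0.58 to 0.66 in the brighter classes, and the 2 dim ones lie at 0.00 and -0.08.

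The proteins that link integrins to the cytoskeleton were taken as a second list. Of 38 adhesion adaptor genes measured, 0 passed over all genes, 2 were higher and 1 lower at an unadjusted p under 0.05, which is 7.89% against 10.6% of all genes. The median difference was 0.013, and 0.0060 over all genes; the groups were separate for 18.4% of the list, against 16.7% of all genes. TNS4, a tensin that binds integrin β tails, was at 0.28 ± 0.09, and ZYX, the focal adhesion protein zyxin, was at 0.20 ± 0.06. FERMT1, which encodes kindlin-1, an integrin activator of epithelia, was at -0.15 ± 0.06, and the crosslinker ACTN1 was at 0.14 ± 0.07. The groups were separate in all 4 of these genes. The kinases PTK2 and SRC were at 0.02 ± 0.09 and 0.01 ± 0.07.

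Of 33 other basement membrane and matrix genes measured, 0 passed over all genes, 4 were higher and 3 lower at an unadjusted p under 0.05, which is 21.2% against 10.6% of all genes. The median difference was 0.015, and 0.0060 over all genes. NTN4, a netrin that binds laminins and can disrupt their networks, was at -0.71 ± 0.17 with separate groups (limma adjusted p = 0.22). It read 0.27, 0.31 and 0.17 in the controls and -0.29, -0.91 and -0.17 with SDC1 siRNA, with SDC1 siRNA replicate 2 far below the other arrays. NID2, the laminin-binding nidogen-2, was at 0.30 ± 0.10 from the dimmest class. TGM2, a transglutaminase that binds fibronectin, was at 0.20 ± 0.07, and TNC, the matrix protein tenascin-C, was at -0.20 ± 0.08. The collagen IV chains COL4A1 and COL4A2, the main network of basement membranes, were at 0.01 ± 0.07 and -0.09 ± 0.09.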

How the data were processed

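Gene expression was measured on 6 Affymetrix arrays, 3 per group. The deposited values are log2 signals made with RMA by the authors, per the submitters' processing notes; the sources used here give neither software nor version. The values were centred on each probe set's median, a step read from the values, so levels and detection calls could not be used. Brightness classes were read from the single-precision storage steps (tolerance 5e-08); chance can place a probe set too high. Each gene was the mean of its probe sets in its brightest class. The group term was fitted with lmFit and eBayes (limma 3.58.1, R 4.3.3) over 19775 genes and, singly, over 54613 probe sets, with no other term and Benjamini-Hochberg adjustment at 0.05. Errors on differences are moderated standard errors; 95% intervals are those of the fit. The fit was tested on simulated data. The genes and lists were chosen with earlier results of these data known. Named were FN1, genes at an unadjusted p under 0.05 (at most 12), the chains and receptors pairing fibronectin and LAMB3, and up to 4 genes with the lowest p per list; further genes were named after their values were seen. Any pair of arrays shared at most 52 exactly equal gene values. The number of arrays limits the precision. Scan dates and batches are not named in the labels, so none could be tested.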

Additional observations from a re-analysis of the deposited data

How the results depend on the processing

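None of the 36 genes passed an adjusted p of 0.05 in limma in any of the 13 alternatives other than array weights, which give control replicate 2 the lowest weight (0.47) and control replicate 1 the highest (1.80). With array weights 2 passed, FN1 at 0.63 (adjusted p = 0.0362) and ITGA2 at 0.53 (adjusted p = 0.0439), and the calls over all genes rose from 5 to 39 (0.197%). When probe sets of shared sequence type were left out, FN1 turned to -0.039, 4 of the 33 genes left were at an unadjusted p under 0.05 (10% of all genes) and 4 had separate groups (16.2% of all genes); FN1 was measured by dim probe sets alone. ITGB4, near 0 throughout, turned to -0.061 in that setting and to -0.0063 with the mean of all probe sets. Leaving out 1 array gave FN1 from 0.55 to 0.66, ITGA2 from 0.44 to 0.54, LAMB3 from 0.30 to 0.36 and ITGA6 from 0.24 to 0.37. The number of genes with separate groups then ran from 10 to 13, and the share of all genes from 23.2% to 29.7%, with fewer arrays to separate. ITGAV ran from -0.079 to 0.13 and ITGB4 from -0.010 to 0.077. SDC1 ran from -0.92 to -0.78, past the threshold in none, and lost its call after quantile normalization again (-0.90, adjusted p = 0.0831). The labels do not say whether the replicate numbers pair the arrays. The correlations of same-numbered arrays' deviations from their group means were -0.01, -0.26 and -0.11, so no positive link by number was seen. Deviations within such small groups constrain each other, so these values cannot tell whether the arrays were prepared in pairs. With the replicate block 0 of the 36 genes passed, 6 were at an unadjusted p under 0.05 (8.42% of all genes), 0 of all genes passed, and SDC1 was at -0.84 (adjusted p = 0.0929). The cause of these shifts was not tested.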
